A study of Mus musculus with 12 samples.

Results

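The genes described are 10 genes of the Wnt-driven pericentral program of the liver, chosen by name: the ligands Wnt2, Wnt9b and Rspo3, the receptor Lgr5, the ubiquitin ligases Rnf43 and Znrf3, the feedback gene Axin2, the transcription factor Tbx3, and the enzymes Glul and Oat. All 10 were found among the 17710 genes of the deposited table, and all 10 passed the filter on low counts in every comparison. RNA was sequenced from whole livers of 12 male wild-type mice, 3 in each of 4 groups: ICR mice on CDAHFD, ICR mice on ND, C57BL/6J mice on CDAHFD and C57BL/6J mice on ND. CDAHFD is a high-fat diet that lacks choline and supplies its protein as defined L-amino acids, used to induce metabolic dysfunction-associated steatohepatitis, and ND is a normal chow diet. The mice were obtained at an age of 8 weeks and stayed on their diet for 10 weeks. C57BL/6J is an inbred strain and ICR an outbred stock, and the comparison of the strains asks how alike their livers respond to the diet.

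The liver lobule is zoned from the portal tract to the central vein. Endothelial cells at the central vein secrete Wnt ligands and R-spondin 3, and in the neighbouring hepatocytes these stabilise beta-catenin, which with TCF factors turns on pericentral genes. R-spondins bind LGR receptors and remove RNF43 and ZNRF3, which otherwise clear Wnt receptors from the cell surface. Axin2, Lgr5, Rnf43 and Znrf3 are themselves targets of the pathway, so their RNA is often read as its output. Glul, which makes glutamine from ammonia, and Oat, ornithine aminotransferase, are enzymes of the hepatocytes around the central vein.

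The 2 enzymes share a zone, and Oat was called lower on CDAHFD while Glul was not, so the 250 bases before their RefSeq start sites are shown (GRCm38.p6). RefSeq promoters were matched for 6 of the 10 genes. Capitals mark CCAAT, searched on both strands, which is held by 33.85% of 32851 mouse promoters of that length. The stretch of Glul lies at chr1:153899679-153899928 on the plus strand and that of Oat at chr7:132576399-132576648 on the minus strand.
Glul: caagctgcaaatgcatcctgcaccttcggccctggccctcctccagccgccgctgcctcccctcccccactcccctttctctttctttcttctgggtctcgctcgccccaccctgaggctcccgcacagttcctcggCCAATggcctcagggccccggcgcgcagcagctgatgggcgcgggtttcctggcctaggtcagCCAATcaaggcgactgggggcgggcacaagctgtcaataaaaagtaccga
Oat: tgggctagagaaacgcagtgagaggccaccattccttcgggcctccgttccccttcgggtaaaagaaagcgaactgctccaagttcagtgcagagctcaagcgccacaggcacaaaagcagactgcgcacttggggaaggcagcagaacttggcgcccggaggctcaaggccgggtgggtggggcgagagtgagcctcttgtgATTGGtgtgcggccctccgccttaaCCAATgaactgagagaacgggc
Each stretch holds 2 CCAAT matches. The TCF letters CTTTGAA or CTTTGAT were in neither of them and in none of the other matched promoters, against 7.479% of all promoters. TATAAA, held by 12.368%, was in none either. With shares this low and 6 genes matched, finding none says little, and sequence outside the 250 bases was not searched.

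In the GRCm38 annotation (GENCODE M21) Tbx3 lies on chromosome 5 from 119670669 to 119684724 on the plus strand, Rspo3 on chromosome 10 from 29452416 to 29535867 on the minus strand, Rnf43 on chromosome 11 from 87662722 to 87735539 on the plus strand, Glul on chromosome 1 from 153899944 to 153909723 on the plus strand and Oat on chromosome 7 from 132557478 to 132576398 on the minus strand. The exons of Rspo3 share 13.1% of their bases with the antisense gene Gm48159, and Glul has a pseudogene, Glns-ps1, 96.8% identical over 1126 bases. No source used here says whether counting used strand, so reads of Rspo3 and its antisense gene could not be told apart, and the count of Glul is uncertain to the extent that reads were shared with the pseudogene.

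Library totals were 29665092 to 30826629 counts in ICR on CDAHFD, 23363460 to 24205176 in ICR on ND, 24612309 to 32214782 in C57BL/6J on CDAHFD and 22245245 to 22752858 in C57BL/6J on ND. Levels are given as CPM, counts scaled to a common library total on TMM-scaled library sizes, which centre the libraries on their typical gene. The TMM factors separated the diets, so the choice of scaling bears on every diet value: with library size alone the median gene was 0.656 higher in log2 on CDAHFD in C57BL/6J and 0.594 higher in ICR, against 0.004 and -0.015 with TMM. Summed general hepatocyte markers were 47733 to 89435 CPM on CDAHFD over both strains and 111572 to 144931 CPM on ND. In bulk RNA, fewer cells of a type and less RNA per cell cannot be told apart.

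On CDAHFD, Tbx3 was at 0.285 of its ND level in ICR and 0.349 in C57BL/6J, and Oat at 0.306 and 0.347. Rspo3 was 1.58-fold higher on CDAHFD in C57BL/6J, and no other member was called with diet in either strain. In ICR 2 of the 10 genes were called at an adjusted p under 0.05, both lower, where 36.7% of all genes tested were called, 20.1% higher and 16.5% lower. In C57BL/6J 3 were called, 1 higher and 2 lower, where 47.2% of all genes were called, 26% higher and 21.2% lower. The median log2 fold change of the 10 was -0.305 in ICR and -0.338 in C57BL/6J, against -0.015 and 0.004 over all genes tested, and with library size only it was 0.309 in ICR and 0.318 in C57BL/6J, against 0.594 and 0.656. Groups did not overlap for 3 of the 10 genes in ICR and 5 in C57BL/6J, where the shares over all genes were 53.4% and 58.4%.

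**Figure D1:**
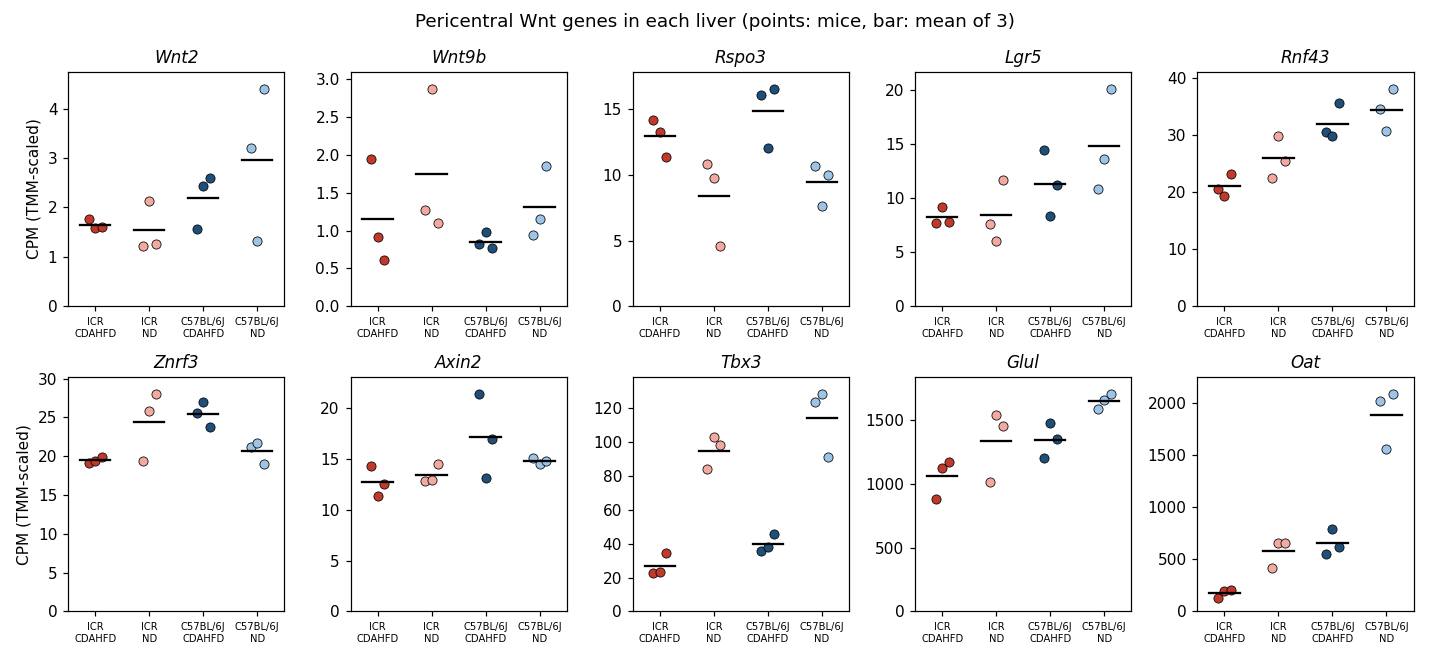
Level of each of the 10 genes in each liver. The vertical axes give CPM on TMM-scaled library sizes and start at 0, points are mice and bars are means of 3. Tbx3 and Oat are lower on CDAHFD in both strains with no overlap, and Oat is lower in ICR than in C57BL/6J on either diet.

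Wnt2, a Wnt ligand of liver endothelium, was next to last of the 10 genes per length, at a mean of 0.906 FPKM. Its levels were 1.77, 1.58 and 1.60 CPM in ICR on CDAHFD and 1.23, 2.14 and 1.27 CPM in ICR on ND. In C57BL/6J they were 1.56, 2.43 and 2.60 CPM on CDAHFD and 3.19, 1.32 and 4.39 CPM on ND. The diet groups overlapped in both strains, with log2 fold changes of 0.11 ± 0.32 in ICR (SE, adjusted p = 0.816) and -0.43 ± 0.43 in C57BL/6J (SE, adjusted p = 0.438). Wnt9b, the other central vein ligand, had the lowest level per length, at a mean of 0.269 FPKM over the 12 libraries. It had 1.95, 0.922 and 0.608 CPM in ICR on CDAHFD and 1.28, 2.87 and 1.10 CPM in ICR on ND. C57BL/6J livers had 0.824, 0.977 and 0.767 CPM on CDAHFD against 0.943, 1.15 and 1.85 CPM on ND. Its diet groups overlapped as well, and its intervals were wide, from -1.90 to 0.77 in log2 in ICR and from -1.49 to 0.26 in C57BL/6J.

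Rspo3, the R-spondin of the central vein, had all CDAHFD libraries above all ND libraries of their strain. It had 14.2, 13.3 and 11.4 CPM in ICR on CDAHFD and 10.9, 9.74 and 4.58 CPM in ICR on ND. The C57BL/6J livers held 16.1, 12.1 and 16.5 CPM on CDAHFD against 10.7, 7.65 and 10.01 CPM on ND. The log2 fold change was 0.63 ± 0.31 in ICR (SE, adjusted p = 0.155) and 0.66 ± 0.20 in C57BL/6J (SE, adjusted p = 0.0211), and only the second was called. The sizes in the strains differed by -0.03 ± 0.38 in log2 (SE, adjusted p = 0.988). The call in C57BL/6J was lost without C57BL/6J CDAHFD replicate 3 (adjusted p = 0.0809), without C57BL/6J ND replicate 2 (0.0662) and in one fit of all 12 libraries (0.0659). With library size only Rspo3 was called in ICR as well, at 1.23 (adjusted p = 0.0191).

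Markers of stellate cells moved with Rspo3. Their summed level was 1113 to 1165 CPM in ICR on CDAHFD and 242 to 525 CPM in ICR on ND, and 936 to 1291 CPM in C57BL/6J on CDAHFD against 327 to 478 CPM on ND, and 7 of 10 stellate genes in ICR and 9 of 10 in C57BL/6J were called higher. Endothelial marker sums overlapped between the diets, at 269.9 to 336 CPM in ICR on CDAHFD, 218 to 372 CPM in ICR on ND, 251 to 339 CPM in C57BL/6J on CDAHFD and 192 to 349.7 CPM in C57BL/6J on ND. Central vein endothelial markers, 6 genes, had sums that did not overlap between the diets, at 58.9 to 65.9 CPM in ICR on CDAHFD, 33.1 to 57.03 CPM in ICR on ND, 63.0 to 74.6 CPM in C57BL/6J on CDAHFD and 45.8 to 61.2 CPM in C57BL/6J on ND. Without Fabp4 those sums overlapped between the diets in both strains. Of the 6 genes, 2 were called higher in each strain, with 0 lower in ICR and 1 lower in C57BL/6J. Their median log2 fold changes were 0.587 in ICR and 0.092 in C57BL/6J. Mean Selp was lower on CDAHFD, at 3.45 against 4.43 CPM in ICR and 2.03 against 5.69 CPM in C57BL/6J. Mean Cdh13 was higher on CDAHFD in ICR, at 2.76 against 1.39 CPM, and lower in C57BL/6J, at 2.14 against 3.67 CPM. Thbd, which encodes the anticoagulant receptor thrombomodulin, was higher by 2.66 in log2 in ICR and 1.35 in C57BL/6J, and Fabp4, a fatty acid binding protein, by 1.35 and 1.46. The part of any of these cell types in the Rspo3 difference was not tested.

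**Figure D2:**
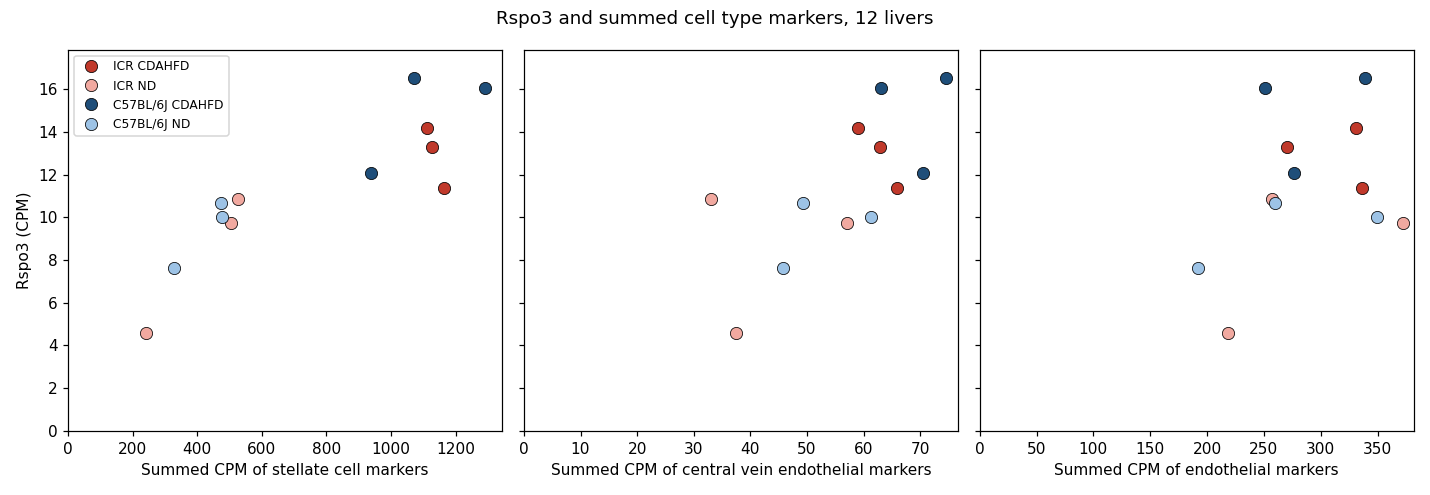
Rspo3 in CPM on the vertical axis against the summed CPM of stellate cell markers (left), central vein endothelial markers (middle) and general endothelial markers (right), 1 point per liver. Within each strain the diets separate on the stellate and central vein axes and overlap on the general endothelial axis. The central vein sums include Fabp4, without which they overlap. The ICR ND liver with 4.58 CPM of Rspo3 has the lowest stellate sum, 242 CPM.

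Lgr5, a receptor for R-spondins, had 7.72, 9.16 and 7.82 CPM in ICR on CDAHFD and 7.62, 6.02 and 11.7 CPM in ICR on ND. For C57BL/6J the levels were 14.5, 8.37 and 11.2 CPM on CDAHFD and 10.9, 13.6 and 20.1 CPM on ND. The diet groups overlapped in both strains, at log2 fold changes of -0.04 ± 0.27 in ICR (SE, adjusted p = 0.926) and -0.38 ± 0.27 in C57BL/6J (SE, adjusted p = 0.269). Its relative Lgr4, which binds the same ligands, fell by 1.35 on the log2 scale in ICR (adjusted p = 9.10e-04) and by 1.24 in C57BL/6J (adjusted p = 1.20e-04).

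The ligases Rnf43 and Znrf3 clear Frizzled receptors from the cell surface, and neither was called with diet under TMM scaling with all libraries kept. Rnf43 had 20.6, 19.4 and 23.2 CPM in ICR on CDAHFD and 22.5, 29.9 and 25.5 CPM in ICR on ND. Livers of C57BL/6J mice had 30.5, 29.9 and 35.7 CPM on CDAHFD against 34.6, 30.7 and 38.1 CPM on ND. Its diet values were -0.29 ± 0.14 in log2 in ICR (SE, adjusted p = 0.149) and -0.10 ± 0.14 in C57BL/6J (SE, adjusted p = 0.570). Znrf3 had 19.2, 19.4 and 19.9 CPM in ICR on CDAHFD and 19.4, 25.8 and 27.96 CPM in ICR on ND. In C57BL/6J it had 25.5, 26.9 and 23.8 CPM on CDAHFD against 21.2, 21.7 and 19.1 CPM on ND. Its log2 fold changes had opposite signs, -0.32 ± 0.16 in ICR (SE, adjusted p = 0.152) and 0.30 ± 0.13 in C57BL/6J (SE, adjusted p = 0.0795), and with library size only both were positive, at 0.30 and 0.96. The C57BL/6J values of both ligases were called higher with library size only, Rnf43 at 0.54 (adjusted p = 0.0194) and Znrf3 at 0.96 (adjusted p = 5.67e-04). Without ICR ND replicate 1 Znrf3 was called lower in ICR, at -0.44 (adjusted p = 0.0250).

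None of the 10 genes had a strain by diet term past the threshold, where 0.18% of all genes were called. At an unadjusted p under 0.05 there was 1, Znrf3, with a term of -0.62 ± 0.20 in log2, the effect in ICR minus that in C57BL/6J (SE, edgeR quasi-likelihood test, unadjusted p = 0.00768, adjusted p = 0.286), and the DESeq2 Wald test called 0 of the 10. Without ICR ND replicate 1 the Znrf3 term was -0.76 and passed, at an adjusted p of 0.0486.

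Axin2, part of the complex that degrades beta-catenin, had 14.3, 11.3 and 12.5 CPM in ICR on CDAHFD and 12.8, 12.9 and 14.5 CPM in ICR on ND. C57BL/6J livers had 21.3, 13.1 and 16.95 CPM on CDAHFD and 15.1, 14.5 and 14.8 CPM on ND. The diet groups overlapped, and the 95% intervals of the log2 fold change, -0.44 to 0.30 in ICR and -0.21 to 0.64 in C57BL/6J, included 0. With library size only Axin2 was called higher in both strains, at 0.54 in ICR (adjusted p = 0.0292) and 0.89 in C57BL/6J (adjusted p = 0.0111). The C57BL/6J CDAHFD library with the highest Axin2 and Lgr5 also had the highest sum of cholangiocyte markers. That sum was 2584 CPM, of which Spp1 gave 2433 CPM. The group's lowest sum was 759.5 CPM, of which Spp1 gave 696 CPM. The part of cholangiocytes was not tested.

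Tbx3, a T-box transcription factor of pericentral hepatocytes, fell in both strains. It had 22.8, 23.4 and 34.5 CPM in ICR on CDAHFD and 83.8, 103 and 98.3 CPM in ICR on ND. The C57BL/6J livers held 35.4, 38.0 and 45.9 CPM on CDAHFD against 124, 128 and 91.3 CPM on ND. All libraries on CDAHFD were below all libraries on ND of their strain. The log2 fold change was -1.81 ± 0.18 in ICR (SE, adjusted p = 7.98e-04) and -1.52 ± 0.17 in C57BL/6J (SE, adjusted p = 1.25e-04).

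Glul was the most abundant of the 10 per length, at a mean of 396 FPKM over the 12 libraries, followed by Oat at 343 FPKM and Tbx3 at 11.8 FPKM. It had 884, 1124 and 1172 CPM in ICR on CDAHFD and 1013, 1541 and 1450 CPM in ICR on ND. For C57BL/6J the levels were 1202, 1476 and 1347 CPM on CDAHFD against 1587, 1658 and 1699 CPM on ND. Groups overlapped in ICR and were apart in C57BL/6J, and neither diet difference was called, at -0.33 ± 0.21 in log2 in ICR (SE, adjusted p = 0.259) and -0.29 ± 0.20 in C57BL/6J (SE, adjusted p = 0.256). The DESeq2 Wald test called the C57BL/6J difference, at an adjusted p of 0.0457.

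Oat had 126, 196 and 204 CPM in ICR on CDAHFD and 415, 659 and 655 CPM in ICR on ND. Livers of C57BL/6J mice had 551, 792 and 615 CPM on CDAHFD against 2024, 1556 and 2084 CPM on ND. No library on CDAHFD reached any on ND of its strain. The log2 fold change was -1.71 ± 0.25 in ICR (SE, adjusted p = 0.00284) and -1.53 ± 0.23 in C57BL/6J (SE, adjusted p = 7.25e-04). In order of mean level the groups were C57BL/6J ND, C57BL/6J CDAHFD, ICR ND and ICR CDAHFD, of which C57BL/6J CDAHFD and ICR ND overlapped. The ratio of Oat to Glul in FPKM, taken within each library, averaged 0.250 ± 0.0272 in ICR on CDAHFD, 0.657 ± 0.0295 in ICR on ND, 0.741 ± 0.0684 in C57BL/6J on CDAHFD and 1.76 ± 0.284 in C57BL/6J on ND (SD, n = 3 each).

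**Figure D3:**
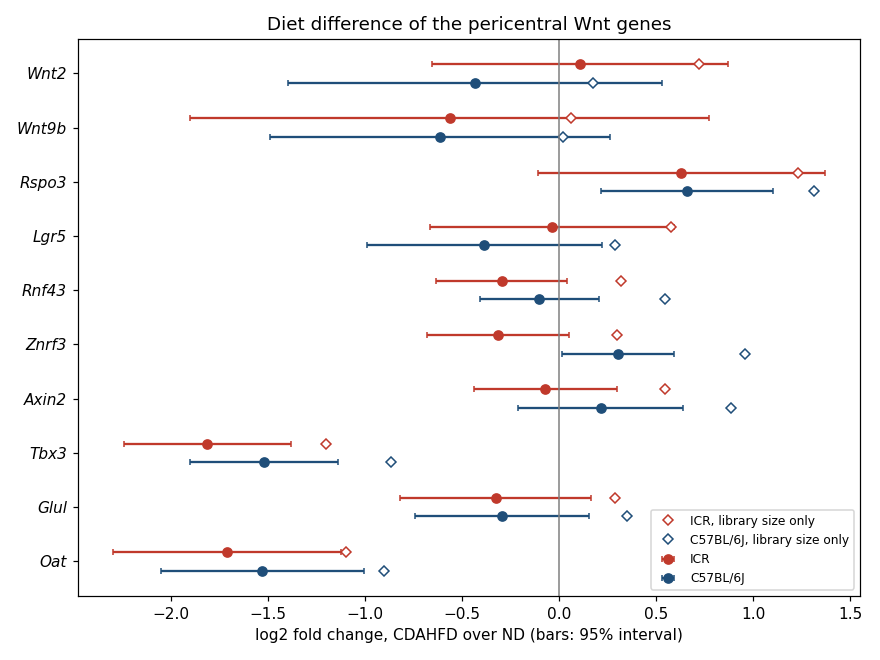
Diet difference of each gene. The horizontal axis is the log2 fold change of CDAHFD over ND, filled points with 95% intervals are the TMM-scaled values of ICR (above) and C57BL/6J (below), and open diamonds are the values with library size only. Tbx3 and Oat lie below 0 and Rspo3 above 0 under both scalings in both strains, while Wnt9b, Lgr5, Rnf43 and Glul change sign with the scaling in both.

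General hepatocyte markers fell as well under TMM scaling, with 4 of 7 called lower in ICR and 5 of 7 in C57BL/6J. With library size only, 2 of 7 were called lower in each strain, at median log2 fold changes of -0.343 in ICR and -0.293 in C57BL/6J. The ICR calls of Hnf4a and Apoa1 were each lost in 5 of the 6 fits that left out 1 library. Set against the summed level of these 7 markers, Tbx3 was lower on CDAHFD with no overlap. It had 262 to 420.4 CPM per 1000000 CPM of those markers in ICR on CDAHFD and 616 to 871 on ND. In C57BL/6J it had 454 to 741 on CDAHFD and 818 to 1023 on ND. Oat was also lower on this scale, at 1629 to 2487 in ICR on CDAHFD and 3047 to 5591 on ND, and at 9476 to 11541 in C57BL/6J on CDAHFD and 12439 to 18676 on ND. Glul was higher on it in C57BL/6J with no overlap and overlapped in ICR: it had 11449 to 14281 in ICR on CDAHFD and 7440 to 13074 on ND, and 17666 to 25185 in C57BL/6J on CDAHFD and 12532 to 15226 on ND. Axin2 was higher on it with no overlap in both strains, at 127 to 186 in ICR on CDAHFD and 94.2 to 110 on ND, and at 157 to 447 in C57BL/6J on CDAHFD and 116 to 132 on ND. In C57BL/6J the same held for Rnf43, at 358 to 640 on CDAHFD and 245 to 342 on ND, and for Znrf3, at 322 to 535 on CDAHFD and 167 to 173 on ND. Both overlapped in ICR, and Lgr5 overlapped in C57BL/6J, while in ICR it had 95.3 to 102 on CDAHFD and 51.1 to 81.1 on ND. Most of the sum of the hepatocyte markers was Alb. It gave 34604 of 47733 CPM in C57BL/6J CDAHFD replicate 1 and 64858 of 117876 CPM in ICR ND replicate 2. On TMM-scaled library sizes the sum was itself lower on CDAHFD, at 47733 to 89435 CPM against 111572 to 144931 CPM on ND. A gene with equal CPM on both diets is therefore higher on this scale. The share of all genes without overlap on this scale was not computed. Neither the lower nor the higher values are therefore read as a result about these genes.

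Between the strains, Oat had the largest difference of the 10 genes on either diet. On CDAHFD 2 of the 10 genes were called, both lower in ICR, where 15.6% of all genes were called and 7.5% were lower. On ND 1 was called, lower in ICR, where 21.5% of all genes were called and 10.1% were lower. The strains did not overlap for 5 of the 10 genes on CDAHFD and 3 on ND, where the shares over all genes were 44.5% and 35.4%. Oat was lower in ICR than in C57BL/6J, at a log2 difference of -1.90 ± 0.26 on CDAHFD (SE, adjusted p = 8.81e-04) and of -1.71 ± 0.25 on ND (SE, adjusted p = 0.00149), with no overlap between the strains on either diet. Its diet effect differed between strains by -0.18 ± 0.35 in log2 (SE, adjusted p = 0.928). Rnf43 was lower in ICR on CDAHFD, at a log2 difference of -0.61 ± 0.14 (SE, adjusted p = 0.0160), a call lost without C57BL/6J CDAHFD replicate 3 (0.0558) and without ICR CDAHFD replicate 2 (0.0738). On ND its difference was -0.41 ± 0.14 (SE, adjusted p = 0.0571), with no overlap, and it was called with the DESeq2 Wald test (0.0278), the replicate block (0.0471), without C57BL/6J ND replicate 2 (0.0481) and without ICR ND replicate 2 (0.0399). Lgr5 on ND was at -0.81 ± 0.29 (SE, adjusted p = 0.0653), with overlap, and was called with the DESeq2 Wald test (0.0302), the replicate block (0.0491) and without ICR ND replicate 3 (0.0420). On CDAHFD Tbx3 was at -0.56 ± 0.19 (SE, adjusted p = 0.0599) and Znrf3 at -0.38 ± 0.14 (SE, adjusted p = 0.0773), and both were called with the DESeq2 Wald test (0.0294 and 0.0340) and with library size only (0.0252 and 0.0344). Znrf3 was also called in the fit of the 6 CDAHFD libraries (0.0358) and Tbx3 without ICR CDAHFD replicate 3 (0.0345). Without ICR ND replicate 1 Znrf3 was called between the strains on ND, at 0.38 (0.0300). Glul did not overlap between the strains on either diet and was not called, at -0.34 ± 0.20 on CDAHFD and -0.30 ± 0.20 on ND (SE).

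**Figure D4:**
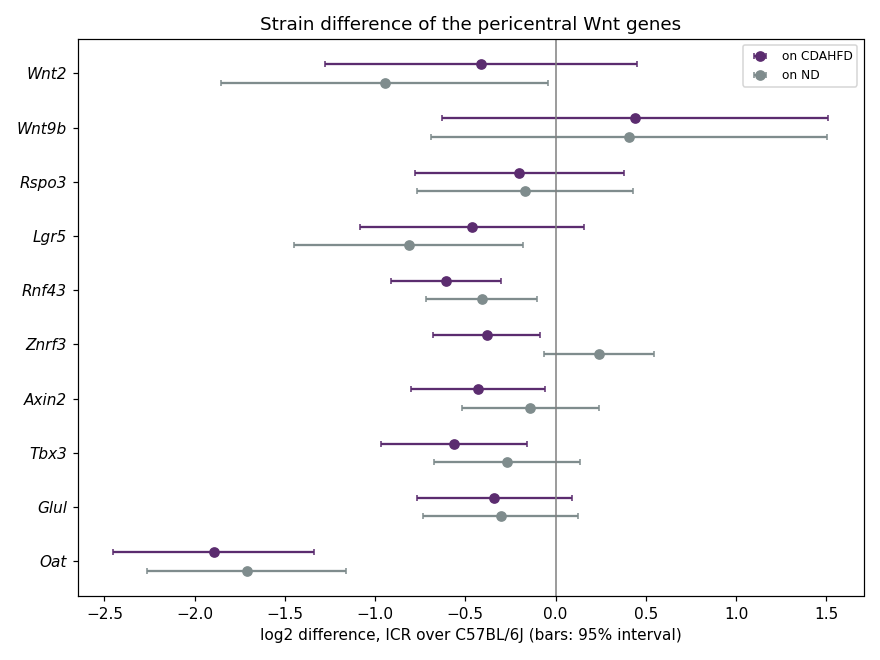
Strain difference of each gene. The horizontal axis is the log2 difference of ICR over C57BL/6J with 95% intervals, on CDAHFD (above) and on ND (below). Oat stands at -1.90 on CDAHFD and -1.71 on ND.

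The gene whose levels over the 12 libraries were most like those of Oat was Lhpp, at a Pearson r of 0.979 among 12255 genes. This is a description over libraries that share diet and strain differences, and Serpina1d (0.977) and Ahcy (0.975) were close behind. Lhpp, a phosphatase gene, is itself in the list of other pericentral genes used here. Lhpp is a neighbour of Oat, the second protein-coding gene after it on chromosome 7, with Nkx1-2 between them, and the neighbours were examined after the values were seen. Lhpp had 7.98, 13.3 and 15.7 CPM in ICR on CDAHFD and 38.6, 64.9 and 62.7 CPM in ICR on ND. In C57BL/6J it had 42.9, 52.8 and 44.6 CPM on CDAHFD against 127, 85.7 and 134 CPM on ND. It was lower in ICR, at a log2 difference of -1.92 ± 0.27 on CDAHFD (SE, adjusted p = 0.00115) and -1.06 ± 0.26 on ND (SE, adjusted p = 0.0160), the second lost without C57BL/6J ND replicate 1 (0.0570) and without C57BL/6J ND replicate 3 (0.0652). The strain differences of the neighbours Chst15, Cpxm2 and Fam53b were not called on either diet. Fam53b on ND was close to the threshold, higher in ICR at 0.91 ± 0.30 in log2 (SE, adjusted p = 0.0526). The part of zone or of place on the chromosome in the likeness of Oat and Lhpp was not tested.

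**Figure D5:**
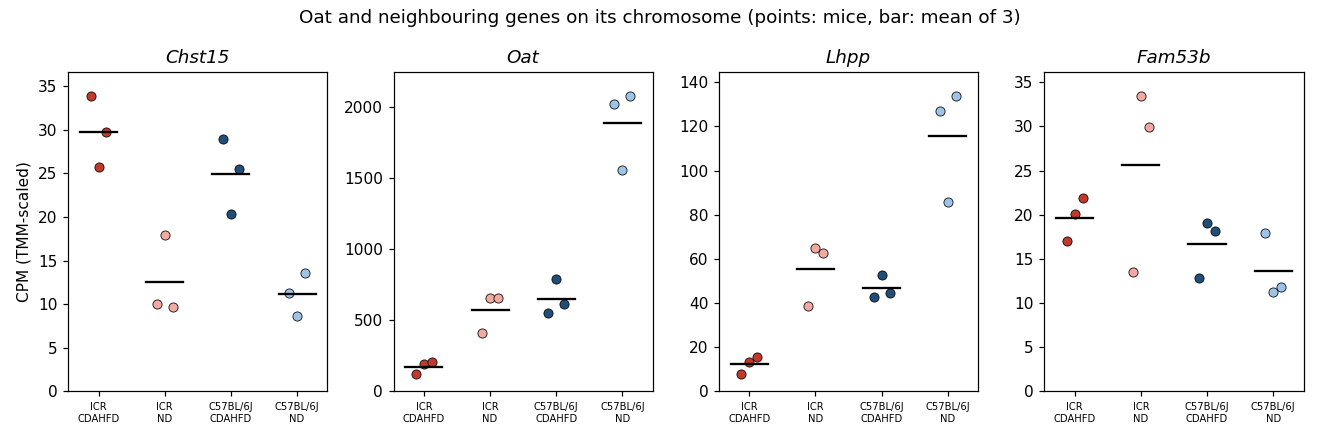
Level of Oat, Lhpp and the neighbours Chst15 and Fam53b in each liver. The vertical axes give CPM and start at 0, points are mice and bars are means of 3. Oat and Lhpp are lower in ICR and on CDAHFD, and Chst15 is higher on CDAHFD in both strains.

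Among other members, the most alike genes were Pmm1 for Wnt2 (r = 0.906), Atxn7 for Wnt9b (0.864), Lrrn3 for Rspo3 (0.961), Cep57l1 for Lgr5 (0.928), Apol9b for Rnf43 (0.953), Nipal1 for Znrf3 (0.857), Gm3336 for Tbx3 (0.970) and Nudc for Glul (0.932). Among the members themselves, Glul and Oat had an r of 0.894 over the 12 libraries and 0.895 over deviations from group means.

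Other genes of the pathway moved in both directions. Of 8 other Wnt ligands and secretion genes tested, 2 were higher and 1 lower on CDAHFD in ICR, and 4 and 1 in C57BL/6J, with median log2 fold changes of 0.141 and 1.084. Wnt5a, a ligand of noncanonical signalling, was higher by 1.53 in log2 in ICR and 2.16 in C57BL/6J, and Wls, which carries Wnts to the surface, by 2.36 and 1.57. The Wnt5a call in ICR was lost without ICR ND replicate 3 (0.0672). Porcn, which adds the lipid of Wnts, was at -1.39 in ICR and -0.93 in C57BL/6J. The C57BL/6J call of Porcn was lost with library size only, at -0.27 (0.461), without C57BL/6J CDAHFD replicate 3 (0.0916) and without C57BL/6J ND replicate 2 (0.0703). Of 12 receptors tested, 2 were higher and 3 lower in ICR, and 2 and 4 in C57BL/6J, and their medians of -0.219 and -0.161 were 0.397 and 0.499 with library size only. Secreted inhibitors were higher in 3 of 7 tested in ICR and 3 of 5 in C57BL/6J, with 2 and 0 lower. Their medians were -0.273 and 2.06, the first 0.339 with library size only. The filter on low counts ran within each strain, so the genes tested in a list need not be the same in both. The medians of these lists therefore do not compare the strains. Dkk4 had 10, 47 and 27 counts in ICR on ND and 1, 2 and 11 in C57BL/6J on ND. Wif1 had 18, 31 and 38 counts against 2, 26 and 0. The antagonist Frzb had log2 fold changes of 3.78 and 3.55 and Dkk3 of 3.90 and 3.11.

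In the destruction complex and TCF list, 2 of 17 genes were higher and 1 lower in ICR, and 3 and 3 in C57BL/6J, with medians of 0.061 and -0.027 that were 0.672 and 0.629 with library size only. Ctnnb1, which encodes beta-catenin, was higher by 0.40 in log2 in ICR (adjusted p = 0.0378) and 0.43 in C57BL/6J (adjusted p = 0.0487), both close to the threshold. The ICR call was lost with no filter (0.0545), with the replicate block (0.0687) and without any 1 of 5 of the 6 libraries, all but ICR ND replicate 2, at up to 0.152. The C57BL/6J call was lost with DESeq2 size factors (0.0566), with no filter (0.0589), with the replicate block (0.0526) and when CDAHFD replicate 2, CDAHFD replicate 3, ND replicate 1 or ND replicate 3 was left out, at up to 0.190. Of 8 other Wnt target genes, 5 were higher in ICR and 6 in C57BL/6J, with 0 and 1 lower and medians of 1.41 and 1.5. Sp5 of this list, also looked at after its values were seen, had lower means on CDAHFD in both strains. It had 0.895 against 1.54 CPM in ICR, with overlap, and 2.01 against 4.16 CPM in C57BL/6J, with no overlap. Ccnd1, the cell cycle gene for cyclin D1, was at 2.72 in ICR and 3.19 in C57BL/6J, and Nkd1, a feedback inhibitor, at 1.47 and 0.62. The C57BL/6J call of Nkd1 was lost without CDAHFD replicate 3 and without any of the 3 ND replicates, at adjusted p values of 0.0526 to 0.134. Beside these targets, 5 of 6 cholangiocyte markers were called higher in each strain, with medians of 2.96 in ICR and 3.17 in C57BL/6J. Of the 6 fits that left out 1 ICR library, Krt7 lost its call in 5, Krt19 in 4 and Epcam in 1. Spp1 and Cldn7 kept theirs in ICR, and all 5 kept theirs in C57BL/6J. Sox9, Bambi and Tnfrsf19 of the target list, looked at after their values were seen, were highest on CDAHFD in replicate 1 of each strain, as were the cholangiocyte markers Epcam and Krt19. Sox9 had 52.1, 20.3 and 20.5 CPM in ICR on CDAHFD and 73.8, 31.9 and 34.01 CPM in C57BL/6J on CDAHFD. The part of cholangiocytes or stellate cells in the target list was not tested.

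Of 16 other pericentral genes, 12 were lower and 0 higher in ICR, and 9 and 1 in C57BL/6J, with medians of -1.48 and -0.86 in log2. With library size only 9 were lower and 3 higher in ICR, and 5 and 4 in C57BL/6J. Cyp1a2, a drug-metabolising enzyme, was at -1.68 in ICR and -1.56 in C57BL/6J. Of 19 periportal genes, 14 were lower and 1 higher in each strain, with medians of -1.56 and -1.45. Scaled by library size only, 11 were lower and 2 higher in ICR, and 12 and 4 in C57BL/6J. Cyp2f2, a periportal P450, was at -2.85 in ICR and -2.81 in C57BL/6J.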

How the data were processed

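Whole-liver RNA of 12 mice was sequenced. The labels describe purified mRNA and the paper rRNA-depleted RNA, which was not settled here. The deposited table holds gene counts, FPKM and CPM for each library. Per the submitters' processing notes the authors made the counts by read trimming in fastp 0.23.4, alignment in HISAT2 2.2.1 and summarising in featureCounts 2.0.6, with edgeR 4.0.16 downstream. The build is mm39 in those notes and mm10 in the paper, so coordinates here are those of GRCm38. Counts were used as deposited, unnormalized. The FPKM values of the authors served only to set levels of different genes side by side. The CPM of the authors rest on scaled library sizes, had unequal column sums and were not used. Of 17713 lines, 3 repeats were dropped.

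The counts were fitted with edgeR 4.0.16 in R 4.3.3 (filterByExpr with minimum count 10 and minimum total 15, TMM, quasi-likelihood F test). Diet was tested within each strain on 6 libraries, and strain by diet and strain on each diet in 1 fit of 12 libraries. Benjamini-Hochberg adjustment ran over every gene tested in a comparison, with a threshold of 0.05. Standard errors came from the test statistic and intervals are at 95%. CPM used TMM-scaled library sizes, and log2 CPM for correlations a prior count of 2. The code was tested on simulated data. Replicates are separate mice.

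The 10 genes and the lists were chosen with earlier results of these data known. Beside the 10, the rule named up to 5 genes of each list called in both strains, by the smaller absolute log2 fold change, and for each member the gene with the highest Pearson r, which for Axin2 is not reported here. Not all of the genes that rule selects are named in the text. Alternatives were DESeq2 size factors, library size only, no filter, a filter on CPM (1 or more in 3 or more libraries), the Wald test of DESeq2 1.42.0, the replicate number as a block, other sets of libraries in the fit, and each library left out. The alignment of ICR reads to a reference of another strain was not analysed here.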

Additional observations from a re-analysis of the deposited data

How the results depend on the processing

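With library size only, 8284 genes were called with diet in C57BL/6J (7565 higher and 719 lower, against 3486 and 2839 with TMM) and 7603 in ICR (6988 higher and 615 lower, against 2679 and 2204). Of the 10 genes 6 were then called in C57BL/6J and 4 in ICR, and 4 for strain on CDAHFD. These log2 fold changes became positive in ICR: Wnt9b 0.062, Lgr5 0.58, Rnf43 0.32, Znrf3 0.30, Axin2 0.54 and Glul 0.29. In C57BL/6J they were Wnt2 0.18, Wnt9b 0.022, Lgr5 0.29, Rnf43 0.54 and Glul 0.35, and of the other genes Lrp6 0.18 and Tcf7l2 0.17. Tbx3 and Oat stayed below 0 with diet in both strains. The cause was not tested. The strain by diet count of 25 genes was 14 with library size only, 41 with no filter, 241 by the Wald test of DESeq2 and 12 under the replicate block. The DESeq2 Wald test called 3 of the 10 genes for strain on ND and 4 on CDAHFD. A fit of the 6 ND libraries called 1475 genes for strain on ND, against 2982.

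Replicate numbers were not treated as pairing the libraries, since no label ties them. The paper describes a heatmap made after correction of a batch effect, and no label used here names that batch. Of 12 same-numbered pairs, 7 had a correlation of deviations over 0.1 (range -0.114 to 0.401), against 6 of 24 pairs with different numbers. Whether same-numbered libraries share a batch is not known. On CDAHFD the same-numbered pairs across strains were at 0.401, 0.314 and 0.093. With the replicate block 3 of the 10 genes were called for strain on ND, and Lgr5 with diet in ICR was 0.012.

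Leaving out 1 library at a time gave 3202 to 5464 genes with diet in ICR, 6 to 136 for strain by diet (0 to 1 of the 10), 1255 to 4234 for strain on ND (1 to 3 of the 10) and 760 to 1759 for strain on CDAHFD (1 to 3 of the 10). Log2 values that changed sign ranged from -0.019 to 0.40 for Wnt2, -0.23 to 0.26 for Lgr5 and -0.18 to 0.015 for Axin2 with diet in ICR. For strain by diet they ranged from -0.57 to 0.58 for Wnt9b, -0.32 to 0.20 for Rspo3, -0.20 to 0.083 for Glul and -0.37 to 0.0095 for Oat. For strain on ND they ranged from -0.14 to 0.74 for Wnt9b and -0.40 to 0.12 for Rspo3, and for strain on CDAHFD from -0.16 to 0.75 for Wnt9b. Over all alternatives, values of the 10 genes kept their direction and side of the threshold 638 times and changed sign 35 times. With their direction kept, they newly passed the threshold 22 times and lost it 5 times. The sign changes include values that also newly passed, as Rnf43 in C57BL/6J and Axin2 in ICR did with library size only.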
